A study of Arabidopsis thaliana with 12 samples.

Results

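Intron retention leaves an intron in the polyadenylated RNA instead of removing it. The introns described here are those longer than 100 nt among the retained-intron events of the authors' 3 splicing tables, with the length taken from the interval that the exclusion junction spans and with events left out whose listed difference is not that of their paired values. They are 3218 different intervals in 2412 genes of Arabidopsis thaliana. The untreated comparison of rbm25-1 with wild type holds 2133 of them among 9849 splicing events, the comparison of rbm25-1 with wild type under abscisic acid (ABA) holds 2431 among 11170, and the comparison of ABA with no treatment in wild type holds 2296 among 10502. All 3 comparisons list 1407 of the intervals.

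The study measured polyadenylated RNA in bulked 2-week-old seedlings of wild type and of the mutant rbm25-1, which carries a lesion in RBM25, a gene of pre-mRNA splicing. Both genotypes were taken either with no treatment or 6 hours after a spray with 0.1 mM ABA, which gives 4 groups of 3 samples. The labels name the growth background as Col-0, and they name no mock spray for the untreated groups, so that spraying and ABA cannot be told apart. The authors deposited group values only. Sample values and read totals were not in these tables, so no SD and no depth can be given. Whether the samples of a group were separate cultures is not stated, and the spread behind the authors' p-values may be technical.

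An intron is recognised by its donor site, where the U1 small nuclear ribonucleoprotein pairs with the start of the intron, and by its acceptor site, where U2AF binds ahead of the closing AG. RBM25 belongs to the PWI-domain RNA-binding proteins, and its human counterpart associates with U1 components. Plant introns are short and rich in U, and a retained intron is the most common form of alternative splicing in plants. A coding intron that stays in the message usually brings an early stop codon, and such messages can be held in the nucleus or degraded. ABA is a stress hormone that closes stomata and delays germination. The clade A protein phosphatases 2C (PP2C), HAB1 among them, hold its SnRK2 kinases inactive until the PYR/PYL receptors bind the hormone.

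The HAB1 intron is shown whole because HAB1 is a negative regulator of the ABA response whose intron was more retained in rbm25-1 with ABA, and because its sequence shows what retention adds to the message. It is the 4th of 5 introns of the annotated transcript, interrupts coding sequence and lies at chr1:27392394-27392516 on the plus strand. The sequence is from the RefSeq genome of build TAIR10.1, written 5′ to 3′ with capitals on the opening GT, on the closing AG and on the first stop codon in the reading frame of the exon before it, which begins at base 18 of the intron.
HAB1 intron: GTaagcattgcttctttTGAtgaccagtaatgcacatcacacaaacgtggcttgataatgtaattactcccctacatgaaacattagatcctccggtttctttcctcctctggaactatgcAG

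The splice sites of the introns that passed the p threshold in both rbm25-1 comparisons are shown next because these are the introns the genotype results turn on. They come from the same RefSeq genome of build TAIR10.1 on the strand of the gene, 5′ to 3′. Capitals mark the first or the last pair of bases of the intron, with 8 exon bases before a donor and 6 exon bases after an acceptor.
IMPA-2 donor, chr4:9134436-9134455, minus strand: cagtgaagGTaaaaaaacct
IMPA-2 acceptor, chr4:9134319-9134344, minus strand: gtctggttttgcttccacAGgagctg
AT5G16880 donor, chr5:5549104-5549123, plus strand: tctcaaagGTagaaattcgc
AT5G16880 acceptor, chr5:5549618-5549643, plus strand: ttgctgtttttcatttacAGgttttt
ATG8E donor, chr2:18624371-18624390, plus strand: ctctctctGTaagttttctg
ATG8E acceptor, chr2:18624517-18624542, plus strand: ttgattgtgtatattctcAGaagcaa
SUF4 donor, chr1:11041192-11041211, minus strand: ccagccagGTaagttctgat
SUF4 acceptor, chr1:11040679-11040704, minus strand: ttgtttcttttggtttgcAGatgaac
AT4G32060 donor, chr4:15502294-15502313, plus strand: aacaacggGTgagtagtcgt
AT4G32060 acceptor, chr4:15502492-15502517, plus strand: ctgacgaatgattgttttAGggagat
AT1G69252 donor, chr1:26037269-26037288, plus strand: taacagagGTggttaatcga
AT1G69252 nearer acceptor, chr1:26037380-26037405, plus strand: tcgagtttcattcgacttAGtttcag
AT1G69252 farther acceptor, chr1:26037386-26037411, plus strand: ttcattcgacttagtttcAGtttccg

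Percent spliced in (PSI) is the authors' value and is read here as retention relative to splicing at that interval's own junction, since annotated introns had low values. It is not the share of all RNA of the gene that keeps the sequence, because overlapping intervals can differ widely. In NAC082, forms of 245 and 248 nt with the same donor had 33.33% and 6.31% in wild type with ABA. In untreated wild type the median PSI of introns over 100 nt was 8.0%, with the middle 50% of introns between 2.62% and 59.09%. At this level 1142 of 2133 introns lay under 10% and 345 lay over 90%. The median was 7.5% in untreated rbm25-1, 6.9% in wild type with ABA and 8.33% in rbm25-1 with ABA. Introns of up to 100 nt had medians of 5.56%, 5.56%, 4.55% and 5.31% in the same order of groups.

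The 2 ends of this range were held by different kinds of interval. Of 3211 intervals with a strand, 1377 were annotated introns that lay whole inside no annotated exon, and 1123 were annotated introns that some annotated transcript also keeps. Another 343 lay inside annotated exons and matched no annotated intron, and 368 were neither. The untreated comparison listed 913, 798, 208 and 208 of them. Over those, the median PSI in untreated wild type was 3.39% for the first class and 9.74% for the second. It was 100% for the intervals inside exons and 94.5% for those that were neither. A value near 100% in the last pair of classes means that splicing at exactly that junction was rare. A lower PSI there is more use of a junction that the annotation does not list.

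**Figure D1:**
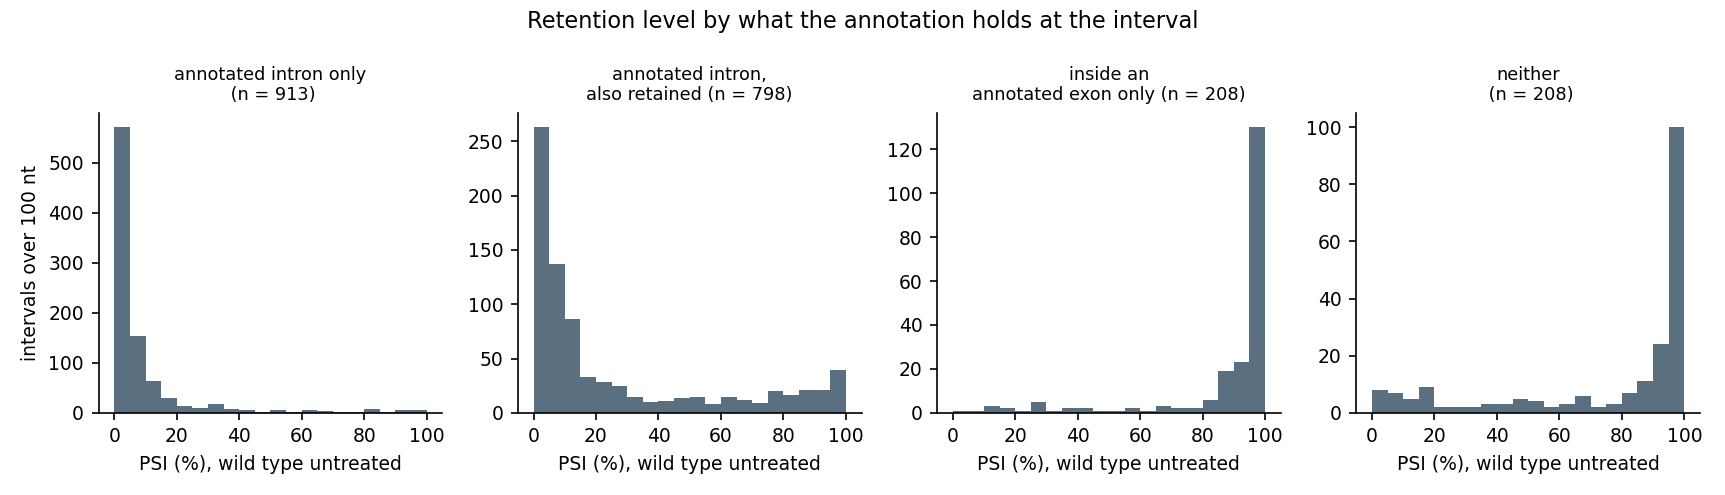
Histograms of PSI (percent, horizontal axis) in untreated wild type for intervals over 100 nt of the untreated comparison, counted on the vertical axis in bins of 5 points, with 1 panel per annotation class and its own vertical scale. The annotated introns gather near 0 (medians 3.39% and 9.74%), and the exonic and other intervals gather near 100 (medians 100% and 94.5%).

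In sequence, 3049 of the 3211 intervals opened with GT and closed with AG, 109 had GC-AG ends and 50 had AT-AC ends. Coding sequence was interrupted by 1706 of them, 603 lay in 5′ UTRs, 144 in 3′ UTRs and 47 in noncoding transcripts. Retention of a coding intron brought an in-frame stop codon in 1592 of 1706 cases, with its first base at a median of 32 bases into the intron. Only 68 of the 1706 kept the reading frame and held no stop. The intervals are not independent of each other, since 720 overlapped another of the same set and 622 shared an end with one. An annotated exon of the opposite strand overlapped 287 of the 3211. Whether reads there were assigned to a strand is not known, since strand-specific counting is not stated.

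The level of RBM25 checks the genotype labels. The authors' deposited tables give it 9.15 FPKM (fragments scaled to transcript length and library) in untreated wild type and 2.55 in untreated rbm25-1, and 9.26 and 1.46 with ABA. Both falls have q = 0.000132 in the authors' deposited tables. No retained-intron event of RBM25 itself was listed.

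An intron was counted as higher or lower where the authors' deposited p, which is not adjusted, was under 0.05. Without treatment 63 of 2133 introns over 100 nt passed, 32 higher and 31 lower in rbm25-1, which is 2.95%, while 6.13% of all splicing events of that comparison passed, 2.39% higher and 3.74% lower. With ABA 89 of 2431 passed, 61 higher and 28 lower in rbm25-1, which is 3.66% against 6.4% of all events (2.92% higher and 3.47% lower). In wild type 39 of 2296 passed with ABA, 24 higher and 15 lower, which is 1.70% against 4.83% of all events (2.35% higher and 2.47% lower). The share of introns over 100 nt that passed was below that of all events in each comparison, so the counts alone are no result about these introns. After Benjamini-Hochberg adjustment over all events of a table, 0 of these introns had an adjusted p under 0.05 in any of the 3 comparisons, with the lowest at 0.468, 0.402 and 0.522, while 1, 2 and 1 events of any kind did (0.0102%, 0.0179% and 0.00952%). An intron called higher or lower therefore passed the unadjusted threshold and failed the adjusted one.

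More introns were counted higher than lower with ABA. With the hormone 61 of the 89 introns (68.5%) were more retained in rbm25-1, while 45.6% of all events that passed had the higher PSI in rbm25-1. Without treatment the share was 50.8% for introns over 100 nt and 38.9% for all events. Introns of up to 100 nt had 55 higher and 16 lower with ABA, and 33 higher and 13 lower without. The median PSI difference over all introns above 100 nt was 0 in each comparison, and the mean difference was -0.20 points untreated, 0.62 points with ABA and 0.13 points for ABA in wild type. Whether the direction depends on ABA was not tested, since the tables give no values per sample.

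**Figure D2:**
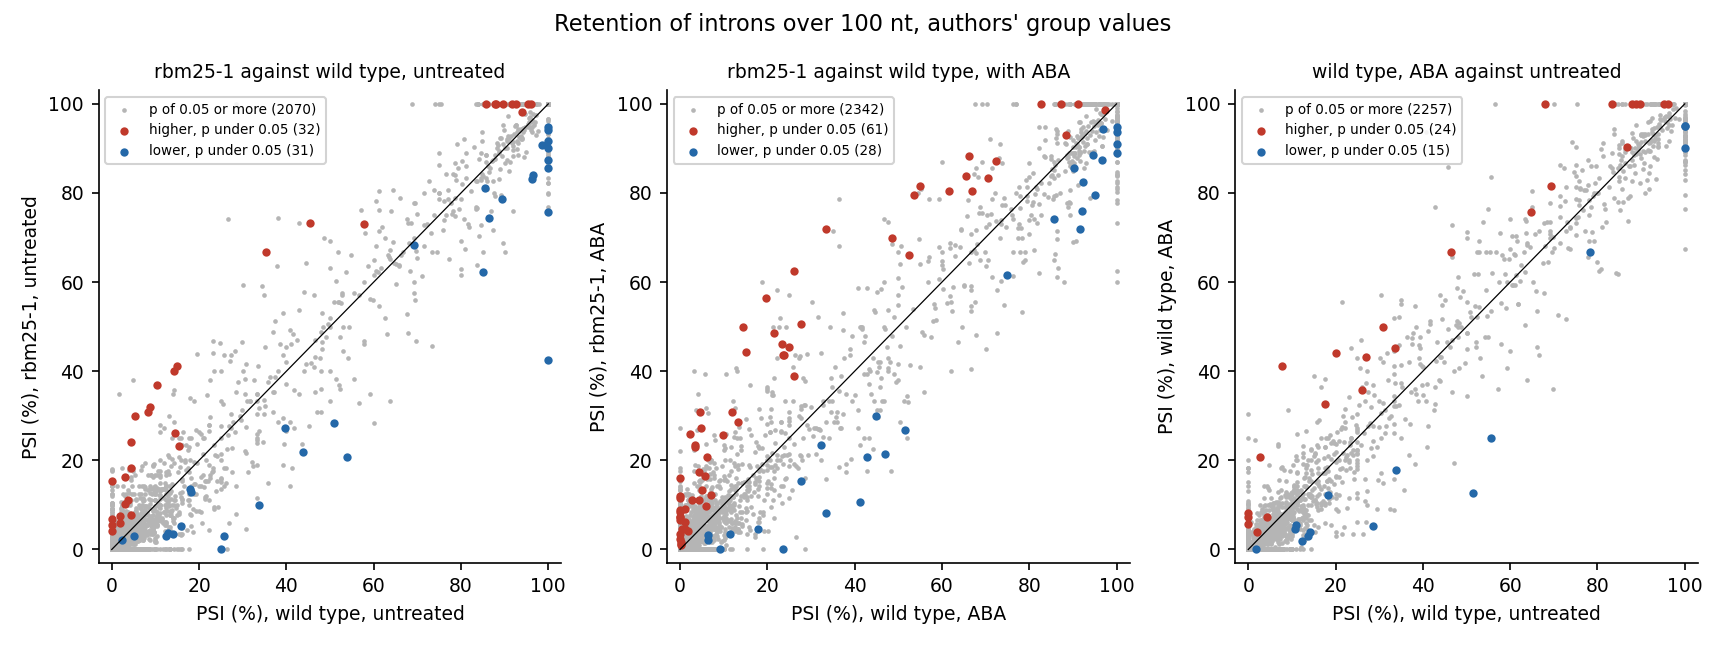
PSI (percent) of each intron over 100 nt in the 2 groups of each comparison, with the first group on the horizontal axis and the second on the vertical one. Red points are higher and blue points lower at a deposited p under 0.05, grey points did not pass, and the line marks equality. With ABA 61 red points stand against 28 blue ones, and in the other panels the counts are 32 against 31 and 24 against 15.

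Both rbm25-1 comparisons listed 1489 of the introns, and they share no sample. Of the 1302 with a difference other than 0 in both, 967 (74.3%) had the same sign. Among introns that passed the p threshold in neither comparison the share was 72.4%. Among the 124 that passed in at least 1 of them, 116 had 2 differences other than 0 and 108 of these (93.1%) agreed in sign. Of the 114 introns with a difference of at least 10 points in both, 111 agreed in sign, and 71 of these were higher and 40 lower in rbm25-1. Across introns the differences had a Pearson correlation of 0.64 and a Spearman correlation of 0.60, given as a description, since introns of a gene share reads and every intron of a comparison shares its libraries. For the 1204 introns of up to 100 nt the Pearson correlation was 0.62.

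**Figure D3:**
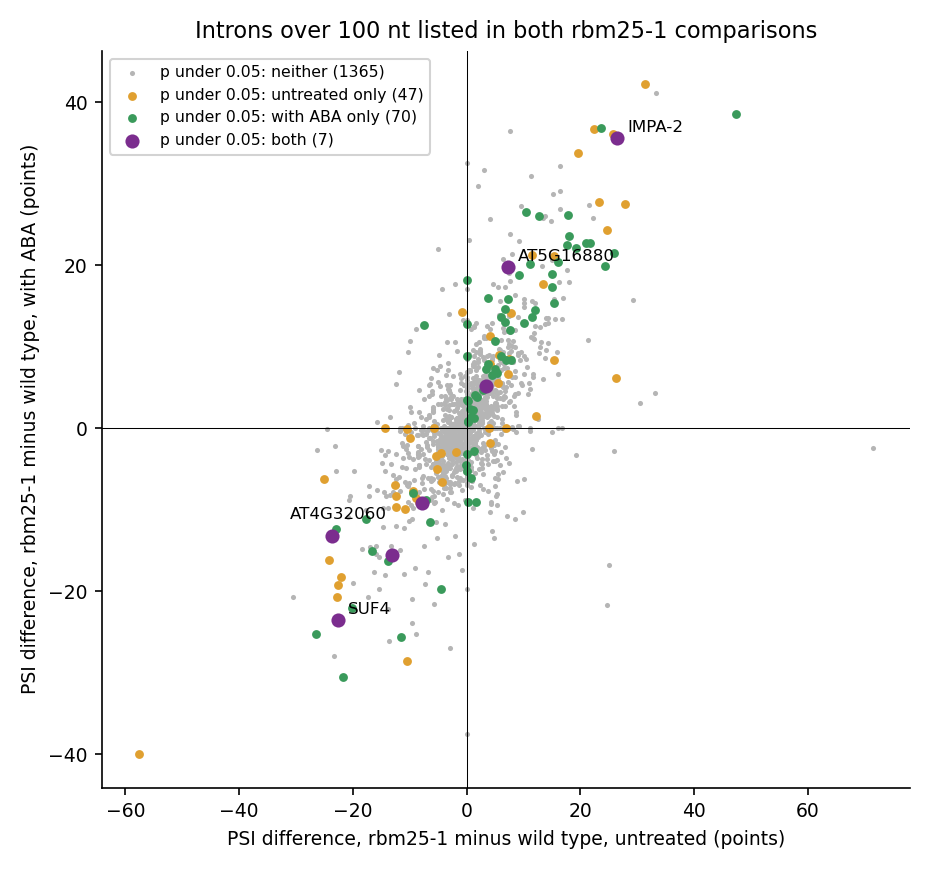
PSI difference (points, rbm25-1 minus wild type) of the 1489 introns over 100 nt listed in both rbm25-1 comparisons, untreated on the horizontal axis and with ABA on the vertical one. Colours give where the deposited p was under 0.05, and the 7 large points passed in both, each with the same sign in both.

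In both comparisons 7 introns passed the threshold, which is 11.1% of the 63 untreated ones and 7.87% of the 89 with ABA. Each had the same sign in both. The other comparison listed only 54 of the 63 and 77 of the 89, and the rest could not pass there. Introns of up to 100 nt had 12 that passed in both, also with the same sign. These are 26.1% of 46 and 16.9% of 71, of which 36 and 62 were listed in the other comparison. On either count the shares were lower for the longer introns. The share of all splicing events that passed in both was not counted. Introns in IMPA-2, AT5G16880 and ATG8E were more retained in rbm25-1, and introns in SUF4, AT4G32060 and the noncoding RNA gene AT1G69252, with 2 overlapping introns, were less retained. All 7 had GT-AG ends, none held a direct repeat of 8 nt or more at its ends, and none overlapped an annotated exon of the opposite strand.

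IMPA-2 (AT4G16143) encodes an importin alpha, an adaptor that carries proteins into the nucleus. Its 123-nt intron at chr4:9134325-9134447 is the last of 9 and lies in the 3′ UTR, outside the coding sequence. Its PSI was 10.45% in untreated wild type and 36.8% in untreated rbm25-1, and 14.43% and 50.0% with ABA. Both mutant groups were above both wild-type groups, by 26.35 points untreated and 35.57 points with ABA. The authors' deposited tables give p = 0.00256 and p = 0.00166 for these differences, and the adjusted p is 0.526 and 0.402. The gene's level was 51.1 FPKM in untreated wild type, 46.1 in untreated rbm25-1, 41.4 in wild type with ABA and 43.0 in rbm25-1 with ABA.

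The other introns that were higher in both lie in 5′ UTRs, each as the first intron of its transcript. AT5G16880 is annotated as Target of Myb protein 1, a family of ubiquitin-binding sorting proteins, and its intron spans 526 nt at chr5:5549112-5549637. Its PSI was 2.96% in untreated wild type, 10.17% in untreated rbm25-1, 3.33% in wild type with ABA and 23.08% in rbm25-1 with ABA, with p = 0.00545 and p = 0.00768 in the authors' deposited tables. ATG8E (AT2G45170) encodes one of the ubiquitin-like ATG8 proteins that are attached to autophagosome membranes, and its intron spans 158 nt at chr2:18624379-18624536. Its PSI was 4.37% and 7.79% untreated and 7.18% and 12.32% with ABA, wild type first, with p = 0.0246 and p = 0.0178 in the authors' deposited tables. ABA also raised it in wild type, from 4.37% to 7.18% (p = 0.0154 in the authors' deposited table). ATG8E had 480 FPKM in wild type with ABA and 311 in rbm25-1 with ABA (q = 0.000132 in the authors' deposited table), while its untreated levels were 434 and 433 FPKM.

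SUF4 (AT1G30970) encodes a C2H2 zinc finger protein that acts with FRIGIDA to keep the flowering repressor FLC active. Its last intron, the 6th of 6, spans 519 nt at chr1:11040685-11041203 and has an in-frame stop at base 142. Its PSI was 25.81% in untreated wild type and 3.12% in untreated rbm25-1, and 23.53% and 0% with ABA. Both mutant groups lay near 0 and both wild-type groups well above them. The authors' deposited tables give p = 0.0282 and p = 0.0169. The gene's level was higher in rbm25-1, at 22.0 FPKM against 15.9 untreated (q = 0.00793) and 26.7 against 17.7 with ABA (q = 0.000132) in the authors' deposited tables.

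AT4G32060 encodes a calcium-binding EF-hand protein, and its 210-nt intron at chr4:15502302-15502511 meets an in-frame stop at base 2. Its PSI was 33.75% in untreated wild type, 10% in untreated rbm25-1, 17.81% in wild type with ABA and 4.65% in rbm25-1 with ABA. The wild-type level with ABA lay between that of untreated wild type and those of the mutant, and the authors' deposited tables give p = 0.0107 untreated, p = 0.0198 with ABA and p = 0.0222 for ABA in wild type. The level of the gene did not pass the q threshold between genotypes, with q = 0.712 and q = 0.606 in the authors' deposited tables.

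The introns of AT1G69252, a gene annotated as other RNA, share their donor and have acceptors 6 nt apart, so that they are not separate observations. They lie inside an annotated exon at chr1:26037277-26037399 and chr1:26037277-26037405. The 123-nt form had a PSI of 96.35% and 83.24% untreated and of 95.16% and 79.59% with ABA, wild type first (p = 0.00114 and p = 0.00881 in the authors' deposited tables). The 129-nt form had 98.59% and 90.68% untreated and 96.57% and 87.4% with ABA (p = 0.00704 and p = 0.0421 in the authors' deposited tables). Both forms were thus spliced out more often in both mutant groups than in wild type.

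HAB1 (AT1G72770) encodes a clade A PP2C that restrains ABA signalling. The PSI of the intron printed above was 0% in untreated wild type, 15.12% in wild type with ABA and 44.23% in rbm25-1 with ABA. No value for untreated rbm25-1 was in the tables used here. The difference of 29.11 points between genotypes with ABA has p = 0.00350 in the authors' deposited table and an adjusted p of 0.441, and the rise with ABA in wild type has p = 0.160 in the authors' deposited table. HAB1 itself was much higher with ABA, at 6.25 FPKM in untreated and 56.4 FPKM in ABA-treated wild type (log2 3.17 in the authors' deposited table), and stood at 48.3 FPKM in rbm25-1 with ABA. The genotypes had log2 -0.22 with ABA and q = 0.117 in the authors' deposited table. A message that keeps this intron meets the stop codon printed above at base 18 of the intron.

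**Figure D4:**
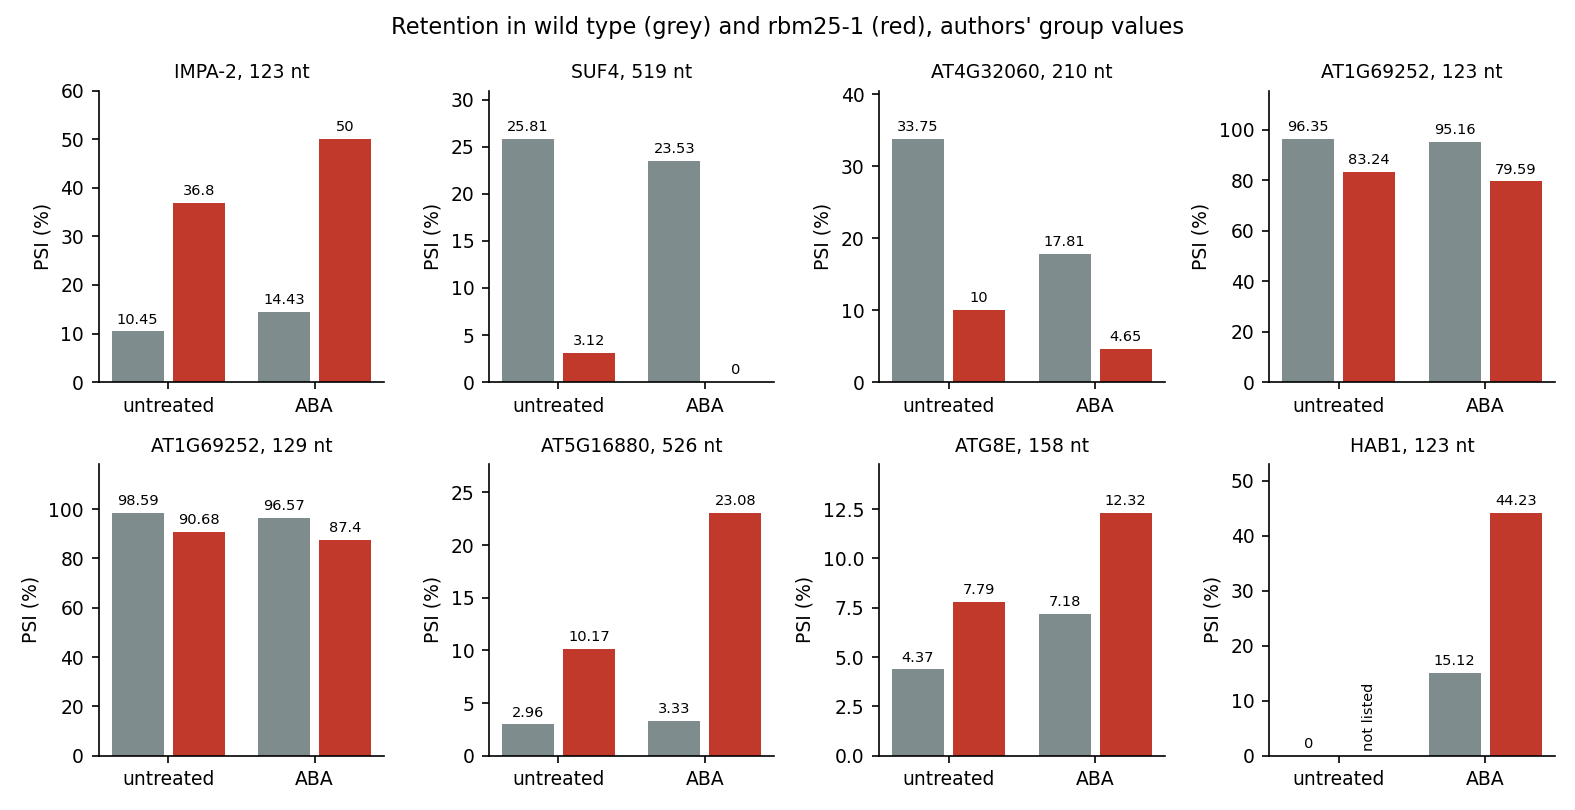
PSI (percent, bars from 0) in the 4 groups for the 7 introns past the p threshold in both rbm25-1 comparisons and for HAB1, with wild type in grey and rbm25-1 in red, and with a scale of its own in each panel. Each bar is the authors' group value without an error. IMPA-2, AT5G16880 and ATG8E are higher in rbm25-1 in both pairs, SUF4, AT4G32060 and AT1G69252 lower in both, and HAB1 reaches 44.23% with ABA.

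Among introns with p under 0.05 without treatment, IMPA-2 and 7 others had the 8 largest rises in rbm25-1, in UTR, coding and unannotated intervals. AT1G23960, a DUF626 protein gene, went from 35.29% to 66.67% over an interval inside an annotated exon. The annotated 183-nt 5′ UTR intron within that interval shares its donor and went only from 2.0% to 6.03% (p = 0.0483 in the authors' deposited table). BGAL8, a beta-galactosidase gene, went from 45.45% to 73.33% at a 5′ UTR intron of 104 nt. ATB' GAMMA, for a regulatory B subunit of protein phosphatase 2A, went from 15.0% to 41.18% at a 5′ UTR intron, and ATS2, for a plastid acyltransferase of lipid synthesis, from 14.29% to 40.0%. NAC082, for a NAC transcription factor, went from 5.26% to 30%, QC, for glutaminyl cyclase, from 8.7% to 32.0%, and AT1G73470, of unknown function, from 8.33% to 30.77%. The authors' deposited p for the 7 largest rises beside IMPA-2 lay between 0.00539 and 0.049968. With ABA each of them was again higher in rbm25-1, and the authors' deposited p was between 0.0506 and 0.623, so none of them passed there. The QC intron overlaps an annotated exon of the opposite strand, so its reads could stem from either gene.

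Among introns with p under 0.05, the largest fall without treatment was in WCRKC1, which encodes a chloroplast thioredoxin. Its 231-nt interval lies inside an annotated exon and had a PSI of 100% in both wild-type groups, 42.42% in untreated rbm25-1 and 60% in rbm25-1 with ABA. The authors' deposited tables give p = 0.00571 untreated and p = 0.184 with ABA. WLIM2b, for a LIM protein that bundles actin, went from 53.85% to 20.69%, and MPK18, for a mitogen-activated protein kinase, from 25% to 0%. AT1G79870, a 2-hydroxyacid dehydrogenase gene, went from 100% to 75.76%, and the kinase gene GSK1 from 85% to 62.16% at its 3′ UTR intron, which overlaps an exon of the opposite strand. HOS10, a gene of the response to osmotic stress, went from 50.94% to 28.32%. SUF4 and AT4G32060 complete the 8, and for the other 6 the authors' deposited p lay between 0.00571 and 0.0467.

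With ABA the largest rise in rbm25-1 among introns with p under 0.05 was in the 5′ UTR of NAC082, at an acceptor 3 nt away from the one above. This 245-nt form went from 33.33% in wild type to 71.88% in rbm25-1 (p = 0.0345 in the authors' deposited table), and from 26.67% to 74.07% untreated, where p was 0.0660 in the authors' deposited table. The 248-nt form had 6.31% and 30.67% with ABA (p = 0.117 in the authors' deposited table). PUR5, for an enzyme of purine synthesis, went from 19.61% to 56.41% at a 5′ UTR intron, and AT1G51920, of unknown function, from 26.09% to 62.5%. VCS, for the mRNA decapping scaffold VARICOSE, went from 55.0% to 81.58% at a 105-nt first intron that keeps the reading frame and holds no stop. AT1G67300, a gene of the major facilitator superfamily, went from 21.62% to 48.65%, and AT4G16360, for a regulatory subunit of SNF1-related kinase, from 4.55% to 30.77%. With IMPA-2 and HAB1 these are the 8 largest, and the authors' deposited p of the 6 others was between 0.0149 and 0.0345.

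The largest falls in rbm25-1 with ABA among introns with p under 0.05 included long coding introns. AT2G45380, annotated as myeloid leukemia factor, went from 41.18% in wild type to 10.64% in rbm25-1 at a 639-nt intron (p = 0.00777 in the authors' deposited table), and from 33.33% to 11.63% untreated. AT1G10890, annotated as arginine/glutamate-rich 1 protein, went from 33.33% to 8.11% at an 868-nt intron (p = 0.0350 in the authors' deposited table), and from 40.74% to 14.29% untreated. WRKY26, for a WRKY transcription factor, went from 47.06% to 21.43%, and MPK17, for a MAP kinase, from 51.61% to 26.92%. The noncoding RNA gene AT2G05518 went from 42.86% to 20.83%, AHL19, for an AT-hook protein, from 91.67% to 72.0%, and AT4G39870, for a TLD-domain protein, from 92.16% to 75.86%. SUF4 is the 8th, and the authors' deposited p of these 5 introns lay between 0.0277 and 0.0491.

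In wild type, ABA gave the lowest p of these introns to SULTR1;2, the high-affinity sulfate transporter of the root. Its last intron, the 12th of 12, spans 112 nt and fell from 51.39% untreated to 12.71% with ABA (p = 0.000915 in the authors' deposited table, adjusted p 0.522). The rbm25-1 groups had 60.29% untreated and 6.19% with ABA. The gene's level rose from 16.4 to 90.4 FPKM in the wild-type groups (q = 0.000132, the authors' deposited table). Other falls were in PLDP1, for a phospholipase D, from 28.57% to 5.26%, in AT3G63445 from 55.56% to 25% and in GUT15, a noncoding RNA gene, from 78.22% to 66.85%. AT2G30600, AT1G48430 and AT2G23985 fell from 13.79%, 12.24% and 14.04% to 2.94%, 2.0% and 3.94%. AT4G32060, described above, is the 8th, and the authors' deposited p of the other 6 lay between 0.00788 and 0.0428. The intervals in AT3G63445 and AT2G23985 overlap an annotated exon of the opposite strand.

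The 8 largest rises with ABA in wild type among introns with p under 0.05 lay in coding sequence and in 5′ UTRs, the latter in AFP3, ERD15 and AT2G04800. AFP3, for a protein that binds the transcription factor ABI5, went from 46.38% to 66.67% (p = 0.0198 in the authors' deposited table), and ERD15, for a dehydration-induced protein, from 67.95% to 100% (p = 0.0479 in the authors' deposited table). AT3G01980, for a Rossmann-fold dehydrogenase, went from 2.67% to 20.69%, and AT1G62610 of the same fold from 7.69% to 41.18%, where an exon of the opposite strand overlaps. AT5G10946 went from 20% to 44.19%, AT1G20100 from 30.77% to 50.0%, AT1G06630, an F-box gene, from 26.87% to 43.24% and AT2G04800 from 83.33% to 100%. The authors' deposited p of these 6 was between 0.0171 and 0.0428.

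The make-up of the introns that passed is given as a description of these sets, with ABA first. Of the 61 higher introns, 58 (95.1%) were annotated introns and 40 (65.6%) were also kept in an annotated transcript, against 80.3% and 36.6% of the 2342 that did not pass. Coding sequence held 29 of the 61 (47.54%), 5′ UTRs 20 (32.79%) and 3′ UTRs 7 (11.48%). Among the 2342 that did not pass the shares were 53.76%, 21.05% and 4.27% in the same order. The median length of the higher introns was 150 nt, against 211.5 nt for the 28 lower ones and 186.5 nt for those that did not pass. Their median PSI in wild type was 7.18%, against 63.3% for the lower ones, of which 12 began over 90%. Since a PSI near 0 can only rise and one near 100 can only fall, the level in wild type limits the direction. Their median donor score, the log2 match to the base frequencies of 135216 annotated introns summed over the donor site, was 7.33 bits, against 5.93 bits for the lower ones and 6.39 bits for those that did not pass. The median acceptor score, summed likewise, went the other way, with 7.61 bits for the higher introns. It was 8.30 bits for the lower ones and 7.95 bits for those that did not pass. Intervals that match no annotated intron were 3 of the 61 higher and 9 of the 28 lower ones. Over all intervals the median donor score was 6.93 and 6.39 bits in the annotated classes. It was 5.34 bits for intervals inside exons and 4.83 bits for those that were neither. The part that this mix has in the scores was not tested. Without treatment the higher introns did not exceed those that did not pass in the share annotated or in donor score, unlike with ABA. There 24 of the 32 higher introns (75%) were annotated, against 80.5% of those that did not pass and 67.7% of the 31 lower ones. Their median donor score was 6.37 bits, against 6.46 bits for those that did not pass and 5.84 bits for the lower ones. The median acceptor score was 7.26 bits for the higher introns, 6.83 bits for the lower ones and 8.07 bits for those that did not pass. The share also kept in an annotated transcript was 56.2% of the 32 against 37.1%, their median length was 163 nt against 180 nt, and their median wild-type PSI was 12.37% against 69.23% for the 31 lower ones.

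By length, introns over 100 and up to 150 nt had 31 of 946 higher (3.28%) and 11 lower (1.16%) in rbm25-1 with ABA. Those over 500 nt had 6 of 273 higher and 5 lower. The bins between end at 200, 300 and 500 nt. With ABA they had 7 and 2 of 371, 11 and 7 of 458, and 6 and 3 of 383. Over all events with ABA 2.92% were higher and 3.47% lower. Without treatment the shortest and longest bins had 13 and 15 of 867, and 1 and 2 of 223. The bins between had 8 and 2 of 322, 8 and 6 of 393, and 2 and 6 of 328. Over all events without treatment 2.39% were higher and 3.74% lower. At the edge of the length rule, introns 1 and 2 nt above the limit had a median PSI of 4.29% and 4.88% in wild type with ABA, and those at the limit and 1 nt below it had 5.97% and 6.35%.

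**Figure D5:**
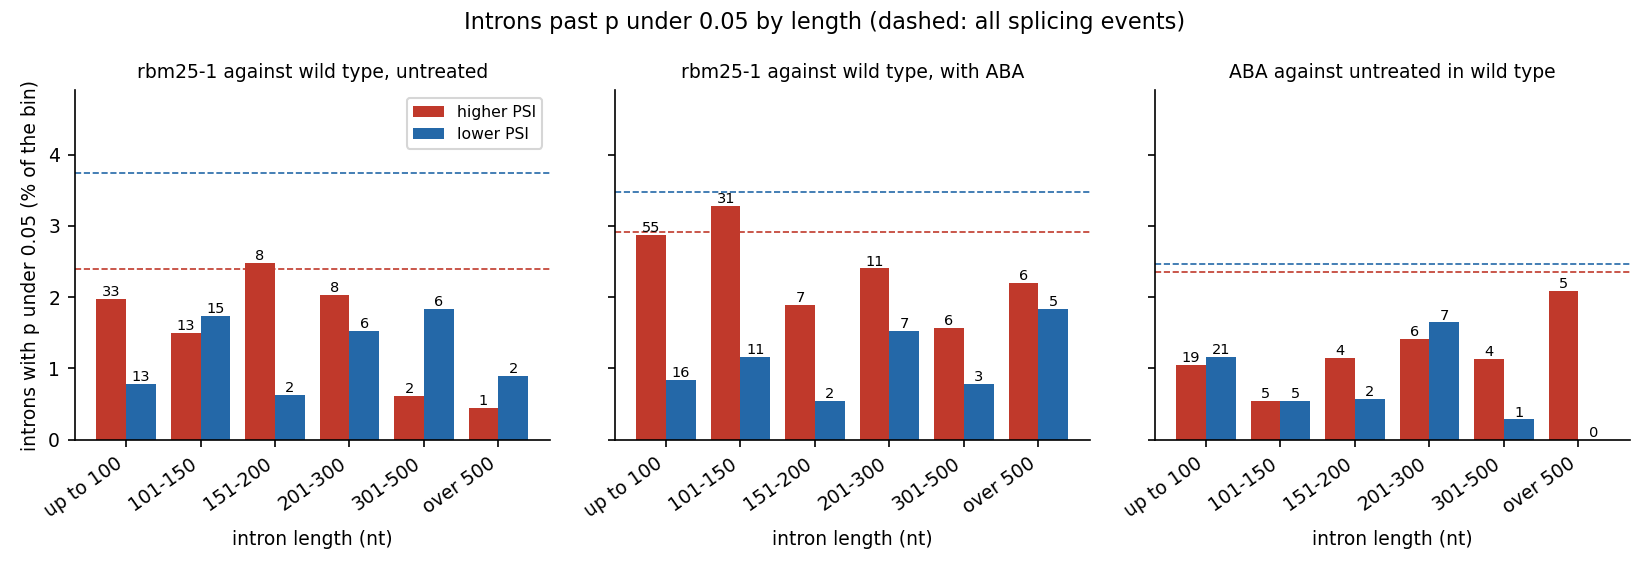
Percentage of retained introns (vertical axis) with a higher PSI (red) or a lower PSI (blue) at a deposited p under 0.05, by intron length in nt, with the counts above the bars. Dashed lines give the same percentages over all splicing events. With ABA the shortest bin above 100 nt holds 31 higher and 11 lower introns, and the bin of up to 100 nt holds 55 and 16.

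Genes of the ABA core and of splicing were taken as small lists, so their counts alone are no result about these genes. Over all introns over 100 nt, 2.95% passed untreated, 3.66% with ABA and 1.70% for ABA in wild type. Over all splicing events the shares were 6.13%, 6.4% and 4.83%. None of the 14 PYR/PYL receptor genes had a listed intron of this length. Of 9 clade A PP2C genes, 4 had 7 introns, of which with ABA 1 was higher (HAB1) and 1 lower in rbm25-1. The lower one is a 300-nt interval inside an exon of ABI2, which went from 92.31% to 82.39% (p = 0.0115 in the authors' deposited table). HAB2, the closest relative of HAB1, had 86.96% and 76.0% untreated and 78.95% and 66.67% with ABA at a 208-nt 5′ UTR intron, wild type first, and did not pass (p = 0.0803 and p = 0.0671 in the authors' deposited tables). The 3 SnRK2 genes of subclass III had 1 such intron and the 8 ABF and ABI5 genes had 4, and none of them passed in any comparison.

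SR and RS proteins are arginine-serine-rich splicing factors whose own long introns are known to be alternatively spliced in plants. Of 20 such genes, 13 had 30 introns over 100 nt, and 17 of these were listed with ABA, with 1 higher and 1 lower in rbm25-1. The share that passed with ABA was 3.66% over all introns over 100 nt. RS2Z32 was higher at a 270-nt 5′ UTR intron, from 23.81% to 43.75% (p = 0.0447 in the authors' deposited table), and had 19.57% and 43.9% untreated (p = 0.142 in the authors' deposited table). SCL33 was lower at a 765-nt coding intron, from 11.43% to 3.53% (p = 0.0365 in the authors' deposited table), and had 18.52% and 9.09% untreated (p = 0.0883 in the authors' deposited table). None of the 20 introns listed without treatment and none of the 28 listed for ABA in wild type passed. Of 5 genes for glycine-rich and polypyrimidine-tract-binding proteins 3 had 7 introns, of which CCR1 was lower with ABA in wild type, from 10.93% to 5.59% at a 283-nt intron (p = 0.0424 in the authors' deposited table). Only 5 of 13 names of U1, LUC7 and U2AF genes matched the annotation, and these had 2 introns, as did the 16 clock genes, with none past the threshold.

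The levels of the genes that hold these introns moved as follows. With ABA, of 58 genes with a more retained intron in rbm25-1 and an FPKM value, 23 (39.7%) were lower and 9 higher in rbm25-1 at q under 0.05 in the authors' deposited table. Among all genes with 1 identifier 14.1% were lower and 18% higher, and among genes with any listed intron over 100 nt 23.8% were lower. The median log2 difference was -0.21 for the 58 genes and -0.06 for all genes with such an intron. Of 25 genes with a less retained intron, 4 were lower and 5 higher. Without treatment 8 of 29 genes with a more retained intron were lower and 1 higher. Of 26 genes with a less retained intron 5 were lower and 3 higher. Over all genes 7.12% were lower and 6.03% higher, and over genes with any listed intron over 100 nt 10.9% and 5.78%. In wild type with ABA 14 of 23 genes with a more retained intron were higher and 6 lower. Over all genes the shares were 26.1% and 30.3%, and over genes with any listed intron over 100 nt 29.7% and 27.5%. Of 13 genes with a less retained intron there, 6 were higher and 5 lower. Genes with a listed intron over 100 nt had a median of 22.95 FPKM in untreated wild type, and all genes had 10.1. In the same group, genes with a more or a less retained intron in untreated rbm25-1 had medians of 41.5 and 44.8 FPKM. The part that the gene's level has in the retention counts was not tested.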

How the data were processed

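The authors deposited 3 splicing tables and 3 gene tables. Each splicing table, per the file headers, gives PSI per group in percent, the PSI difference as a score in points and an unadjusted p per event, and the gene tables give FPKM per group, a log2 fold change without pseudocount, a p-value and a q-value, all made by the authors. Per the submitters' processing notes, Trimmomatic 0.32, TopHat2 2.0.13, Cufflinks 2.2.1 and Cuffdiff were used with build TAIR10. For the splicing p, the program and the test are not given in these sources. Differences are the second group minus the first.

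Rows whose difference departed from that of both PSI values by more than 0.011 points were left out (28 untreated, 28 with ABA and 33 for ABA in wild type, of which 8, 8 and 11 were retained introns over 100 nt). In wild type, PSI was the same in both tables for all 1748 untreated and all 1812 ABA-treated introns listed in both. Annotation, splice sites and stop codons came from the RefSeq genome and annotation of TAIR10.1, read at the files' coordinates, and 95.0% of 3211 intervals had GT-AG ends there. Intervals were compared with Python 3.11.15, pandas 2.3.3 and numpy 2.4.6. The adjustment was tested on simulated p-values.

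The introns, lists, thresholds and named introns were chosen with earlier results of these data known. Named were the 8 largest rises and falls with p under 0.05 per comparison, introns past the threshold in both rbm25-1 comparisons, HAB1, RBM25 and up to 4 introns per gene list. The introns at 0% or 100%, those with end repeats and the annotated AT1G23960 intron were chosen after their values were seen.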

Additional observations from a re-analysis of the deposited data

How the results depend on the processing

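Counts of introns over 100 nt are given in the order of higher and lower in rbm25-1 untreated, higher and lower in rbm25-1 with ABA, and higher and lower with ABA in wild type. A deposited p under 0.01 left 6, 5, 12, 2, 2 and 2. A PSI difference of at least 10 points beside the p left 18, 19, 38, 15, 15 and 8. Benjamini-Hochberg adjustment left 0 in each, from 32, 31, 61, 28, 24 and 15 at an unadjusted p under 0.05. Introns over 150 nt left 19, 16, 30 and 17 in rbm25-1, and the counts for ABA in wild type stayed within 1.5 times. Taking 1 event per gene, GT-AG annotated introns, genes of at least 5 FPKM, or intervals without end repeats of 8 nt or more (chosen after seeing the data) kept all 6 counts within 1.5 times. The 7 introns past the threshold in both rbm25-1 comparisons became 3 at a p under 0.01, 4 at 10 points or more and 4 over 150 nt. Of 59 calls of named introns, 13 passed a p under 0.01 and 0 passed the adjusted p.

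No paired analysis was possible because the tables hold 1 value per group, and leaving out a replicate was not run for the same reason. The depth behind each PSI, values of 0% and 100% included, is unknown.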

Other observations

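A few introns over 100 nt lay at an end of the PSI scale in both groups of one genotype and at least 10 points away in both groups of the other. Of the 1489 introns listed in both rbm25-1 comparisons, 3 had 100% in both wild-type groups and 90% or less in both mutant groups, and 2 had the reverse. At the other end, 1 had 0% in both wild-type groups and at least 10% in both mutant groups, and 2 had the reverse. Beside WCRKC1 and AT1G79870, the casein kinase gene ckl7 had 82.22% untreated and 88.89% with ABA in rbm25-1 against 100% in wild type (p = 0.0787 and p = 0.0481 in the authors' deposited tables). AT4G36980, annotated as a CLK4-associating serine/arginine-rich protein, had 16.0% and 15.38% in wild type and 0% in both mutant groups at a 125-nt coding intron, and passed in neither comparison (p = 0.272 and p = 0.221 in the authors' deposited tables). A/N-InvC, for a neutral invertase that splits sucrose, had 17.65% and 10% in wild type and 0% in both mutant groups at a 761-nt coding intron, and did not pass (p = 0.191 and p = 0.371 in the authors' deposited tables). AT3G07300 had 0% in wild type and 10% and 15.38% in rbm25-1 at a 111-nt 5′ UTR intron, and did not pass (p = 0.200 and p = 0.0508 in the authors' deposited tables).

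At some intervals over 100 nt the bases at one end recur just beyond the other end. The junction can then be placed at more than 1 position with the same spliced product. A direct repeat of 8 nt or more at the ends was found in 157 of 3211 intervals, in 31 of the 50 with AT-AC ends, in 38 of the 109 with GC-AG ends and in 87 of the 3049 with GT-AG ends. Those that passed the p threshold in at least 1 comparison were in AGP31, JR1, UBQ14 and UBQ10. The UBQ14 and UBQ10 intervals are 228 nt long, and UBQ14 and UBQ10 are polyubiquitin genes built of tandem repeats, where a read can be placed in more than 1 copy.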
